A study of Mus musculus with 8 samples.

Results

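Oligodendrocyte precursor and newly formed oligodendrocyte genes were followed in RNA-seq of the corpus callosum, the large white matter tract between the hemispheres. The set is a list of 32 symbols, matched exactly to the gene symbols of the deposited count table. Of the 32, 31 had a row among the 41128 genes, and 30 passed the expression filter that left 15771 genes for testing. Lhfpl3 had no matching row, so its expression is not analysed here, and Casr lay below the filter. All mice were PLP-150Q, a strain that expresses mutant huntingtin in oligodendrocytes from a transgene. Treatment began at 3 months of age and lasted 2 months. The LAQ group (LAQ is read here as laquinimod, an immunomodulatory quinoline carboxamide) received 5 mg/kg LAQ and the control group purified water, and tissue was taken at 5 months. Each group has 4 libraries, numbered 1 to 4 (control) and 5 to 8 (LAQ). The transgene is carried by both groups and no wild-type library was used, so the comparison concerns LAQ within the transgenic background only. The series design names 4 mice per group, but no label ties a library to an animal, so the p-values measure the spread between these libraries.

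Oligodendrocyte precursors carry the PDGF-A receptor Pdgfra and the proteoglycan NG2 (Cspg4) on their surface, receive synaptic contacts from axons, and secrete part of the chondroitin sulfate matrix around them. On leaving the cell cycle they lose these proteins and pass through a short premyelinating stage marked by Gpr17, Enpp6 and Bcas1 before the myelin genes take over. In adult white matter both stages are minority cell states beside the mature oligodendrocytes. In a tissue extract, fewer cells of a type and less RNA per cell cannot be told apart.

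Library totals ranged from 8790749 to 11972197 counts in control and from 9634156 to 12021429 in LAQ, and the members together took 0.276% to 0.312% of them. LAQ 7 stood apart from the other libraries of its group. In a chi-square comparison of pairs over genes, divided by its degrees of freedom, LAQ 7 gave 16.1 to 25.6 against each of them, where the other LAQ pairs gave 7.87 to 8.94 and the control pairs 4.24 to 6.07. Summed markers of mature oligodendrocytes were in place, at 10504 to 12184 CPM (counts adjusted for library size) in control and 11330 to 14445 in LAQ. Markers of striatal neurons, which belong to neighbouring tissue, summed to 1398 to 1844 CPM in control, 497 in LAQ 5 and 3486 in LAQ 7. Hippocampal neuron markers summed to 213 to 338 CPM in control, and LAQ 5 to 8 gave 452, 462, 266 and 271 CPM. All 6 of these markers had a higher mean estimate in LAQ, and their part in the member results was not tested. Many estimates are given without LAQ 7 as well.

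The precursor and newly formed oligodendrocyte genes as a set lay close to the control level in the LAQ libraries. Of the 30 tested members, 16 had a higher and 14 a lower mean estimate in LAQ, and the median log2 fold change was 0.01, beside -0.0012 for all tested genes. No member passed edgeR's quasi-likelihood test at an adjusted p under 0.05 (Benjamini-Hochberg over all 15771 genes), and neither did any other gene (0% called, smallest adjusted p 0.136). For 24 of the 30 members (80%) the 95% confidence interval lay within a 1.5-fold difference in either direction. The share of all tested genes with such an interval was not computed. At an unadjusted p under 0.05, 2 members were higher in LAQ, Tmeff2 and Lrrn1 (6.67% of the tested members, where all genes gave 4.77%). Luzp2, Megf11 and Ncan were lower at that level, 10% of the members against 6.33% of all genes. The 4 LAQ libraries lay wholly above the control libraries for 1 member, Tmeff2 (3.33%, beside 2.78% of all genes), and wholly below them for Luzp2 and Ncan (6.67%, beside 3.61%). Those shares rest on 1 to 3 genes each.

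With DESeq2 the call changed for 1 member: Tmeff2 passed at an adjusted p of 0.0042, where 129 of 15258 genes (0.845%) passed. Without LAQ 7, edgeR called 339 of 15898 genes (2.13%), among them Tmeff2 and Megf11, and the median log2 fold change of the members was -0.06. With a cortical neuron score as covariate 2 members passed, again Tmeff2 and Megf11, beside 2.98% of all genes. A score of mature oligodendrocyte genes as covariate, added after the data were seen, left Mycl as the 1 member called, beside 2.36% of all genes.

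**Figure D1:**
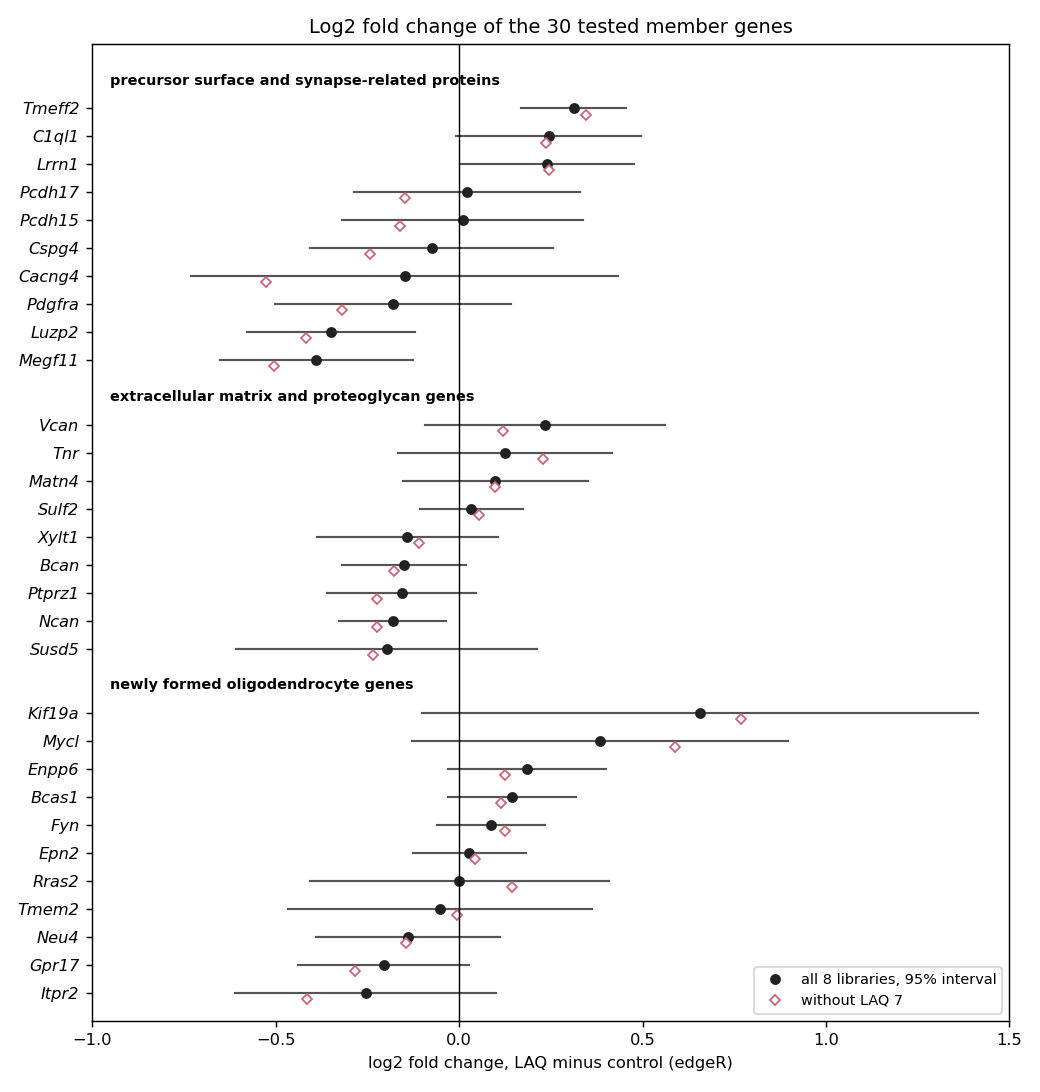
Log2 fold change (LAQ minus control, edgeR) of the 30 tested member genes, grouped by role; black points with lines give the estimate and its 95% confidence interval from all 8 libraries, and open diamonds the estimate without LAQ 7. Most intervals cross 0, the estimates run from -0.39 for Megf11 to 0.66 for Kif19a, and leaving out LAQ 7 moves Cacng4 from -0.15 to -0.53.

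Tmeff2 encodes a transmembrane protein with follistatin-like and EGF-like domains, and lies on chromosome 1 at 50900647 to 51187270 on the plus strand (GRCm38). Its level was 177, 173, 189 and 182 CPM in control 1 to 4 and 229.7, 220.2, 208 and 237 CPM in LAQ 5 to 8. Every LAQ library was above every control library, and the means were 180.2 ± 6.81 and 224 ± 12.5 CPM (SD, n = 4 each). The log2 fold change was 0.31 with an SE of 0.07, a 1.24-fold difference, with an edgeR adjusted p of 0.169. Over 18 alternative settings its log2 fold change stayed between 0.27 and 0.36, and its adjusted p ran from 0.0042 to 0.486. Tmeff2 ranked 45 of 15771 genes by p. Neuronal RNA was present too, with summed cortical excitatory neuron markers of 3684 to 4211 CPM in control and 2680 to 4177 CPM in LAQ. The cell type in which Tmeff2 differed was not tested.

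Luzp2, which encodes a leucine zipper protein and is located at 54835498 to 55268885 on the plus strand of chromosome 7, was measured at 83.4, 65.2, 70.2 and 68.0 CPM in control 1 to 4 and 48.7, 60.1, 64.0 and 52.3 CPM in LAQ 5 to 8. The highest LAQ library, LAQ 7, was just below the lowest control library, control 2. The means were 71.7 ± 8.08 and 56.3 ± 7.02 CPM (n = 4 each), with a log2 fold change of -0.35 (SE 0.10, edgeR adjusted p 0.276). Without LAQ 7 it was -0.42, with an adjusted p of 0.0529, the smallest of the 18 alternative settings. Over these the log2 fold change of Luzp2 lay between -0.45 and -0.23, and its adjusted p reached 0.671.

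Ncan, on the minus strand of chromosome 8 at 70093085 to 70120873, encodes neurocan, a secreted chondroitin sulfate proteoglycan made by astrocytes and neurons as well as by precursors. Control 1 to 4 gave 169, 161, 157 and 165 CPM and LAQ 5 to 8 gave 136, 136.5, 156 and 146 CPM. The groups did not overlap, by a margin of about 1 CPM between control 3 and LAQ 7. The means were 163 ± 5.29 and 144 ± 9.31 CPM (n = 4 each), and the log2 fold change was -0.18 (SE 0.07, edgeR adjusted p 0.360). Without LAQ 7 it was -0.22, with an adjusted p of 0.0826. Over the 18 alternative settings the log2 fold change of Ncan lay between -0.31 and -0.15, and its adjusted p between 0.0603 and 0.646.

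The promoters of these 3 genes are shown because their libraries did not overlap between the groups, and each is the 250 bases upstream of the RefSeq start (RefSeq, GRCm38.p6), read 5′ to 3′ on the gene's strand. Capitals mark E-boxes, written CANNTG, the motif bound by basic helix-loop-helix factors such as OLIG2; the motif reads the same on both strands. Tmeff2 is chr1:50927273-50927522 on the plus strand, Luzp2 is chr7:54834995-54835244 on the plus strand, and Ncan is chr8:70120845-70121094 on the minus strand. The gene spans given above are from GENCODE and their starts differ from the RefSeq starts. The Tmeff2 stretch lies inside its GENCODE span, and the Ncan stretch overlaps the edge of its span.
Tmeff2: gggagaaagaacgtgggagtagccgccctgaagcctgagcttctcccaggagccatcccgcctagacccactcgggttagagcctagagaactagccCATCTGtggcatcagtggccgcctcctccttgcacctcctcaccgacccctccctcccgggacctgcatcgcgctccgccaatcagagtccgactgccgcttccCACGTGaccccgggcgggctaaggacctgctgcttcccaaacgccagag
Luzp2: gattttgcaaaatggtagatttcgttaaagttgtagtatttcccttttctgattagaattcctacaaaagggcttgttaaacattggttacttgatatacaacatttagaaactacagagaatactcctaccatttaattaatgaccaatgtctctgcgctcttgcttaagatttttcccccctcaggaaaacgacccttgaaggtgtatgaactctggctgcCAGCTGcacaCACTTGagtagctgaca
Ncan: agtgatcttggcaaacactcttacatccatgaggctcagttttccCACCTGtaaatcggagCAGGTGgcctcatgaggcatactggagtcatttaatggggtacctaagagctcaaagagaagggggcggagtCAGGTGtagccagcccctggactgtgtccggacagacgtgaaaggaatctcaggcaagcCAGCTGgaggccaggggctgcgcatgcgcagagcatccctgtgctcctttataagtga
Tmeff2 and Luzp2, which differed in opposite directions, hold 2 E-boxes each, and Ncan holds 4. RefSeq promoters were found for 24 of the 32 members, 26 promoters in all, and 17 of the 26 (65.4%) hold an E-box, beside 66.2% of 32851 promoters of the same length. A SOX motif, ACAAAG or ACAATG on either strand, is present in 4 of the 26 (15.4%; Casr, Enpp6, Lrrn1 and Tnr) and in 25.2% of all promoters. It has no match in the 3 promoters printed. Both motifs are short and such matches are a description of the letters only.

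Among the 11 surface and synapse-related genes of precursors, 10 were tested, and 5 had a higher and 5 a lower estimate in LAQ. Their median log2 fold change was -0.03, and without LAQ 7 it was -0.20 with 3 of 10 higher, while without LAQ 8 it was 0.028. Pdgfra, the receptor through which PDGF-A drives precursor division, was at 73.0, 60.8, 55.5 and 55.4 CPM in control and 48.6, 57.9, 68.7 and 40.4 CPM in LAQ. Its groups overlapped, with LAQ 8 lowest of all and LAQ 7 above 3 of the 4 controls. The log2 fold change was -0.18 (95% confidence interval -0.50 to 0.14, edgeR adjusted p 0.689). It was -0.32 without LAQ 7 (unadjusted p 0.0244, adjusted p 0.181) and -0.063 without LAQ 8. The exons of Pdgfra share 6.50% of their bases with other genes, among them Gm42802 and Gm42803 on the opposite strand. Since the strand setting of the counting was not given, reads there are uncertain. Cspg4, the NG2 proteoglycan, was at 24.3, 20.8, 27.6 and 27.0 CPM in control and 23.3, 20.3, 31.2 and 19.5 CPM in LAQ. LAQ 7 was the highest and LAQ 8 the lowest of the 8 libraries, so that the control range lay inside the LAQ range. Its log2 fold change was -0.08 (interval -0.41 to 0.26, adjusted p 0.893), and without LAQ 7 it was -0.24. With all 8 libraries both canonical precursor markers had estimates below 0 whose intervals include 0, and the size of both depended on single LAQ libraries.

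Megf11, a transmembrane protein with many EGF-like repeats, had the lowest estimate of the 30 members. It was at 25.8, 26.8, 27.7 and 32.1 CPM in control and 19.3, 20.2, 26.3 and 19.96 CPM in LAQ. Only LAQ 7 reached the control range. The log2 fold change was -0.39 (SE 0.12, edgeR adjusted p 0.278), and without LAQ 7 it was -0.50 with an adjusted p of 0.0342. Over the alternatives its adjusted p ran from 0.0342 to 0.675, and the estimate was below 0 in all 18.

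Lrrn1, a neuronal-type leucine-rich repeat membrane protein, was at 132, 111, 115 and 128 CPM in control and 167, 152, 141 and 113 CPM in LAQ. LAQ 5, 6 and 7 were above all controls and LAQ 8 was among them. The log2 fold change was 0.24 (SE 0.11, unadjusted p 0.0475, edgeR adjusted p 0.447). LAQ 5 and LAQ 6, the highest libraries for Lrrn1, were also the highest in summed hippocampal neuron markers (452 and 462 CPM). The part of those cells in the result was not tested. C1ql1, a secreted C1q-family protein known as a synaptic organizer, was at 15.2, 13.6, 17.7 and 14.2 CPM in control and 19.4, 17.3, 18.2 and 16.8 CPM in LAQ. The groups overlapped through control 3. Its log2 fold change was 0.24 (SE 0.12, adjusted p 0.457), the same without LAQ 7.

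Cacng4, an auxiliary subunit of AMPA-type glutamate receptors, had the widest spread among the surface genes in LAQ. Control 1 to 4 gave 44.8, 41.4, 33.7 and 42.5 CPM, while LAQ 5 to 8 gave 18.7, 30.05, 61.4 and 36.2 CPM, a coefficient of variation of 49.4% against 11.8% in control. The estimate was -0.15 (edgeR adjusted p 0.875), -0.53 without LAQ 7 and 0.07 without LAQ 5. LAQ 5 and LAQ 7 are also the libraries lowest and highest in summed striatal neuron markers (497 and 3486 CPM), and their part in the result was not tested. The protocadherins Pcdh15 and Pcdh17, which are cell adhesion molecules, had estimates of 0.01 and 0.02 (controls 19.9 to 26.4 and 61.5 to 80.5 CPM). Both were highest in LAQ 7, at 29.9 and 97.5 CPM, and both estimates were below 0 without it (-0.16 and -0.15). In all, LAQ 7 was the highest of the 8 libraries for 4 of the 10 surface genes (40%), where it was highest for 15.8% of all tested genes.

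**Figure D2:**
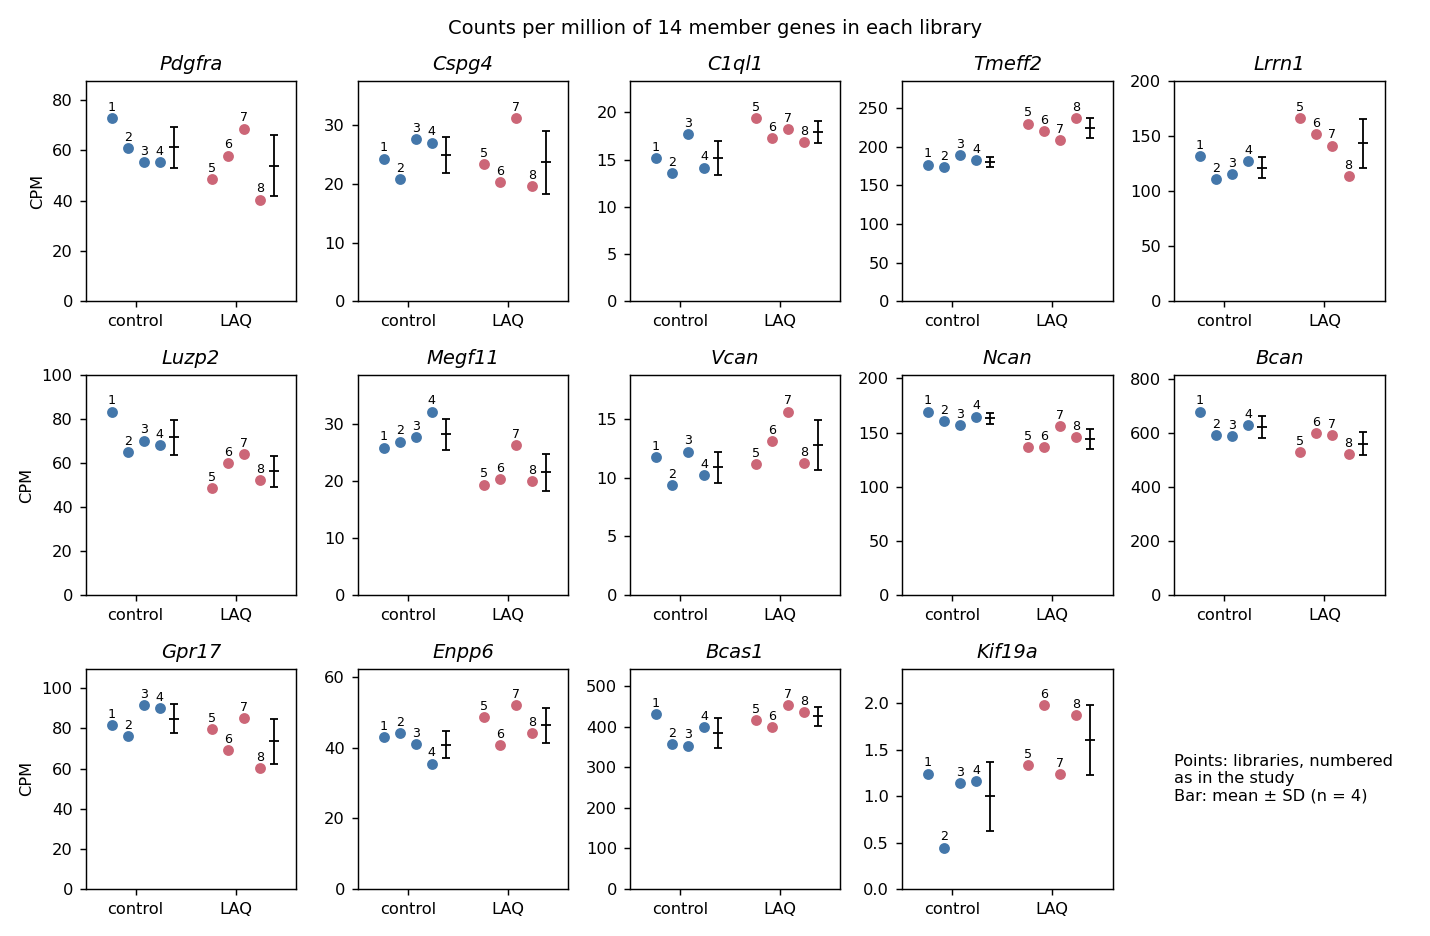
CPM (linear axis from 0) of 14 member genes in each library, control in blue and LAQ in red, with library numbers beside the points and black bars for the mean ± SD of 4 libraries. The groups do not overlap for Tmeff2 (173 to 189 against 208 to 237 CPM), Luzp2 and Ncan, and they overlap in the other 11 panels.

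The 9 matrix and proteoglycan genes had a median log2 fold change of -0.14, with 4 higher and 5 lower. It was -0.11 without LAQ 7, -0.032 without LAQ 8, -0.034 with the cortical neuron score and -0.015 with the astrocyte score as covariate. Of the lecticans, the hyaluronan-binding chondroitin sulfate proteoglycans, Ncan and Bcan had estimates below 0 and Vcan above 0. Bcan, which encodes brevican and is shared with astrocytes, was at 679, 590.2, 589 and 629 CPM in control and 529, 599.5, 592 and 520.0 CPM in LAQ. LAQ 5 and LAQ 8 were below all controls, and LAQ 6 and LAQ 7 were among the lower controls. Its log2 fold change was -0.15 (SE 0.08, edgeR adjusted p 0.489), and -0.18 without LAQ 7 (edgeR unadjusted p 0.0336, adjusted p 0.210). Vcan, the versican gene, was at 11.8, 9.36, 12.2 and 10.3 CPM in control and 11.1, 13.1, 15.6 and 11.2 CPM in LAQ. The groups overlapped, and the log2 fold change was 0.23 (interval -0.09 to 0.56, adjusted p 0.589), and 0.12 without LAQ 7.

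Ptprz1, a receptor-type phosphatase whose extracellular part is a chondroitin sulfate proteoglycan, ranged from 294 to 323 CPM in control and from 224 to 312 CPM in LAQ, with an estimate of -0.16 (edgeR adjusted p 0.556). Susd5, a sushi domain protein, had -0.20 (9.27 to 11.2 against 5.62 to 10.96 CPM), and Xylt1, which starts the glycosaminoglycan chain by adding xylose, had -0.14 (15.8 to 18.0 against 13.9 to 17.5 CPM). Bcan, Ptprz1, Susd5 and Xylt1 were all lowest in LAQ 8. Without LAQ 8 the estimates of Ptprz1 and Susd5 were -0.068 and -0.032, and those of Bcan and Xylt1 -0.11 and -0.10. Without LAQ 7 the estimate of Ptprz1 was -0.22 (edgeR unadjusted p 0.0191, adjusted p 0.162). Those of Susd5 and Xylt1 were then -0.23 and -0.11. Beside Vcan, the estimates above 0 came from Tnr, the tenascin-R that links lecticans (0.13, and 0.23 without LAQ 7, 27.0 to 31.1 against 24.8 to 40.8 CPM), Matn4, a matrilin (0.10, 19.2 to 27.2 against 22.1 to 25.6 CPM), and Sulf2, a heparan sulfate endosulfatase (0.03, 148 to 164 against 155 to 169 CPM). With all 8 libraries none of these 6 passed in edgeR, with adjusted p values from 0.556 to 0.887. The summed level of the 9 matrix genes was 1292 to 1420 CPM in control and 1145 to 1303 CPM in LAQ. Most of that sum came from Bcan and Ptprz1, with control means of 622 and 306 CPM, while 4 of the 9 genes had estimates above 0. Astrocytes also express Bcan, Ncan and Ptprz1, and the astrocyte list was lower in LAQ for 9 of its 12 genes (summed 5927 to 6507 CPM in control, 5655 to 6326 in LAQ, none of the 12 at 0 in all libraries). With an astrocyte score as covariate the estimate of Ncan was -0.17, that of Bcan -0.06 and that of Ptprz1 -0.0063. That covariate was added after the data were seen, and the part of astrocytes in the result was not tested.

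Of the 12 newly formed oligodendrocyte genes, 11 were tested, with 7 higher and 4 lower, a median log2 fold change of 0.03, and 0.11 without LAQ 7. With all 8 libraries none reached an unadjusted p under 0.05 in edgeR. Without LAQ 7, the edgeR unadjusted p was 0.0031 for Mycl, 0.0116 for Itpr2 and 0.0136 for Gpr17 (adjusted 0.0776, 0.130 and 0.139). None of the 11 passed there at an adjusted p under 0.05, in a fit that called 2.13% of all genes. The share of all genes at an unadjusted p under 0.05 in that fit was not computed. Gpr17, a receptor of committed precursors that is shut off before myelination, was at 81.5, 76.3, 91.5 and 90.0 CPM in control and 79.6, 69.3, 85.1 and 60.2 CPM in LAQ. The groups overlapped, with LAQ 6 and LAQ 8 below all controls. Its log2 fold change was -0.21 (SE 0.11, adjusted p 0.496), -0.28 without LAQ 7, -0.12 without LAQ 8 and -0.038 with the astrocyte score. The exons of Gpr17 share 3.62% of their bases with Lims2 on the opposite strand. Enpp6, a choline phosphodiesterase of newly formed cells, was at 43.1, 44.1, 41.1 and 35.5 CPM in control and 48.7, 40.8, 52.1 and 44.2 CPM in LAQ. LAQ 6 was inside the control range and the other 3 were above it, LAQ 8 by a narrow margin. The log2 fold change was 0.18 (SE 0.10, adjusted p 0.509), and 0.12 without LAQ 7.

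Bcas1, a marker of early myelinating cells, was at 429.9, 357, 353 and 398 CPM in control and 416, 398, 452 and 435 CPM in LAQ. Control 1 was above LAQ 5 and LAQ 6, and the log2 fold change was 0.14 (SE 0.08, edgeR adjusted p 0.519). Its exons share 12.6% of their bases with the antisense genes Bcas1os1 and Bcas1os2, and since the strand setting of the counting was not given, reads there are uncertain. Bcas1 also continues in mature oligodendrocytes, whose 18 markers all had estimates above 0 (median 0.18, and 17 of 18 with a median of 0.12 without LAQ 7). With the mature oligodendrocyte score as covariate the estimate of Bcas1 was -0.02, and the part of these cells in the result was not tested. The 3 stage markers Gpr17, Enpp6 and Bcas1 thus did not share a direction, and none of the 3 passed.

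Kif19a, a kinesin that controls cilium length, had the highest estimate of the members and among the lowest counts. It gave 13, 4, 10 and 14 counts in control, which is 1.24, 0.446, 1.144 and 1.16 CPM, and 14, 22, 15 and 18 counts in LAQ, which is 1.33, 1.98, 1.24 and 1.87 CPM. The groups met near 1.24 CPM at control 1 and LAQ 7. Its log2 fold change was 0.66 with a wide interval (-0.10 to 1.41, edgeR adjusted p 0.504), and 0.77 without LAQ 7 (edgeR adjusted p 0.281). Ciliated ependymal cells can carry such a gene, and all 6 ependymal markers had estimates above 0 (summed 37.0 to 48.1 CPM in control, 55.0 to 66.3 in LAQ); their part in the result was not tested. Mycl, a MYC-family transcription factor, was at 15.96, 23.6, 30.5 and 21.2 CPM in control, while LAQ 5 to 8 gave 35.1, 35.4, 16.6 and 31.9 CPM. LAQ 5, 6 and 8 were above all controls and LAQ 7 was near the lowest control. The estimate was 0.38 (adjusted p 0.568), 0.59 without LAQ 7, and 1.07 with the mature oligodendrocyte score as covariate (adjusted p 0.0296).

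Itpr2, an inositol trisphosphate receptor channel, had an estimate of -0.25 (21.1 to 27.9 CPM in control, 15.6 to 27.2 in LAQ, with LAQ 7 the highest of its group) and -0.42 without LAQ 7. Neu4, a sialidase, had -0.14 (31.6 to 45.5 against 32.3 to 40.8 CPM) and Fyn, a Src-family kinase that acts in process outgrowth and myelination, had 0.09 (187 to 198 against 187 to 217 CPM). Epn2, an endocytic epsin, Tmem2, a cell-surface hyaluronidase, and Rras2, a small GTPase, had estimates of 0.03, -0.05 and 0.00032. Epn2 ranged from 154 to 169 CPM in control and from 148 to 174 in LAQ. Tmem2 ranged from 13.4 to 19.3 CPM in control and from 12.2 to 22.1 in LAQ, and Rras2 from 10.3 to 14.8 and from 8.57 to 15.3. The adjusted p values of these 6 genes in edgeR were 0.591 to 0.9996. Casr, the calcium-sensing receptor, gave 1, 5, 4 and 4 counts in control and 0, 1, 2 and 9 in LAQ. Casr was left out of the edgeR test because it lay below the expression filter. DESeq2, run without that filter, gave a log2 fold change of -0.29 for it and no adjusted p.

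**Figure D3:**
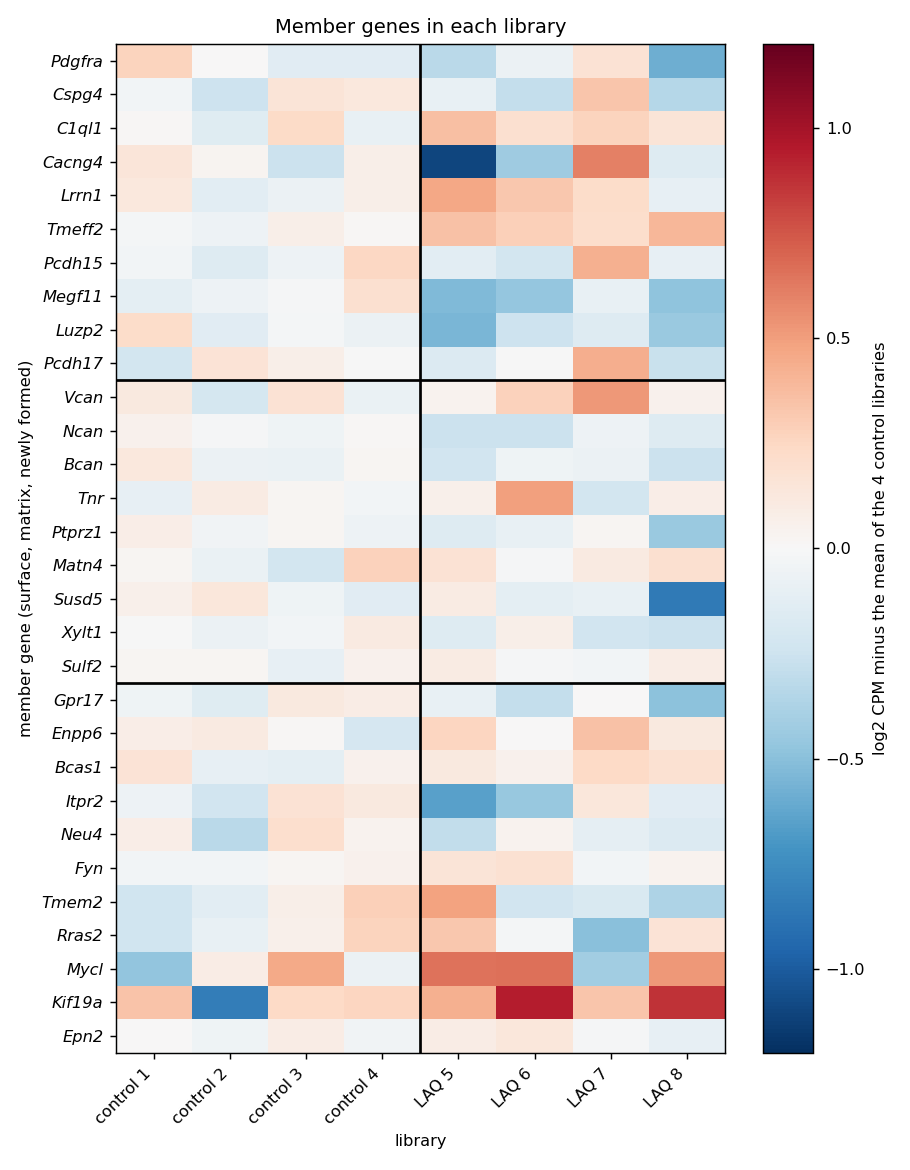
Log2 CPM of each member gene in each library minus the mean of the 4 control libraries (color scale), with rows in the order surface, matrix and newly formed genes and a vertical line between control and LAQ. The LAQ 7 column holds the highest value of the row for 7 of the 30 tested genes and the LAQ 8 column the lowest for 10.

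The coefficient of variation was larger in LAQ for 25 of 30 members (83.3%) and for 63.7% of all tested genes, with medians of 10.5% in control and 15.05% in LAQ for the members and 9.98% and 12.7% for all genes. By library, LAQ 7 was the highest of the 8 for 7 members (23.3%, beside 15.8% of all genes), namely Cspg4, Cacng4, Pcdh15, Pcdh17, Vcan, Enpp6 and Bcas1. LAQ 8 was the lowest for 10 members (33.3%, beside 14.2%), namely Pdgfra, Cspg4, Pcdh17, Bcan, Ptprz1, Susd5, Xylt1, Gpr17, Tmem2 and Epn2. Control 2 was the lowest for 7 (23.3%, beside 11.8%). The summed level of the surface genes was 613 to 658 CPM in control and 616 to 747 CPM in LAQ, with the top value in LAQ 7. The newly formed genes summed to 921 to 1008 CPM in control and 1002.5 to 1047 CPM in LAQ. LAQ 7 was also the highest library in summed mature oligodendrocyte markers (14445 CPM) and interneuron markers (1251 CPM) and the lowest in cortical excitatory markers (2680.1 CPM); their part in the result was not tested.

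**Figure D4:**
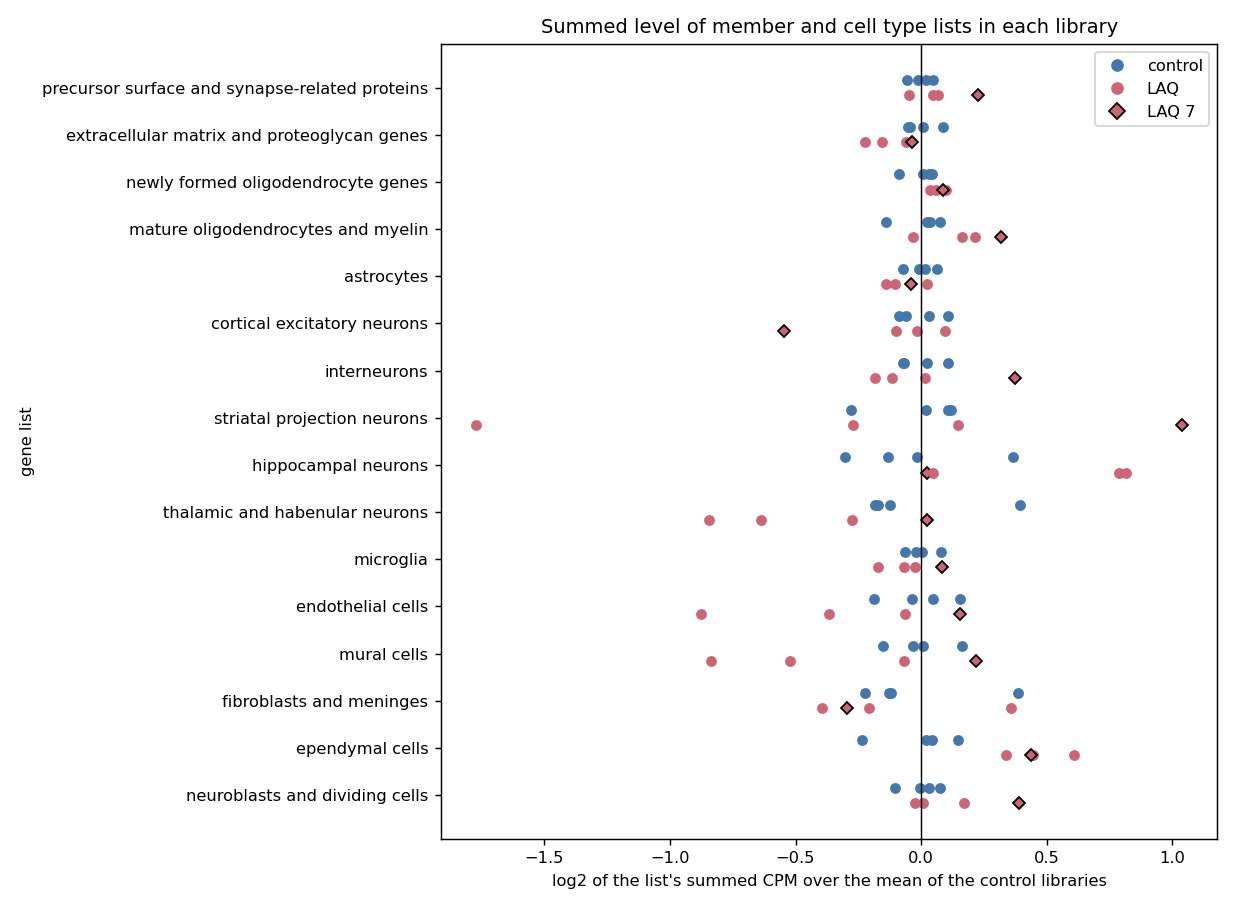
Log2 of the summed CPM of each list over the mean of the 4 control libraries, for the 3 member lists (top rows) and 13 cell type lists; each point is a library, control in blue, LAQ in red, and LAQ 7 as a diamond. The member lists spread far less than the striatal list, where LAQ 5 (497 CPM) and LAQ 7 (3486 CPM) lie on opposite sides of the controls. The astrocyte list (-0.14 to 0.06) and the microglia list (-0.17 to 0.08) spread little as well.

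Levels were compared between genes only per length, as CPM per kilobase of annotated exon. Bcan was the most abundant member in control (153 ± 10.4 CPM per kilobase, SD, n = 4), followed by Bcas1 (102 ± 9.65) and Fyn (43.9 ± 1.22). Lrrn1 (32.8) and Epn2 (30.4) came next and were within their spreads of each other, as were Sulf2 and Tmeff2 (both 26.9) and Ncan and Ptprz1 (22.6 and 21.5). Pdgfra stood at 6.10 and Enpp6 at 6.39, level within their spreads, and Cspg4 lower at 2.09. Vcan (0.754), Kif19a (0.245) and Casr (0.0764) were at the bottom. The exon length counts every annotated isoform, so long genes with rare exons are understated. Among the stage markers, the order of level ran from Bcas1 through Gpr17 (16.3) to Enpp6 and Pdgfra in this tissue.

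**Figure D5:**
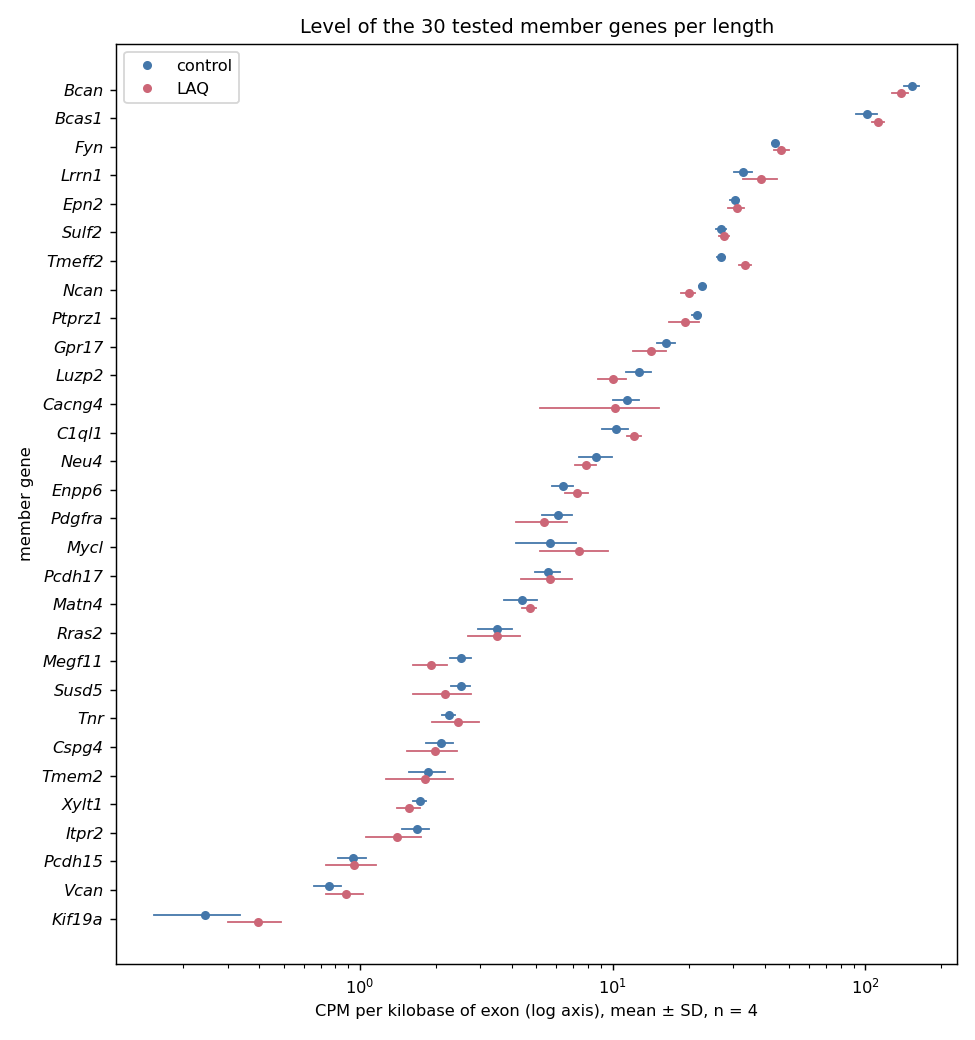
CPM per kilobase of annotated exon (log axis) of the 30 tested members, mean ± SD of 4 libraries, control in blue and LAQ in red, in order of the control level. Bcan (153) and Bcas1 (102) lead in control and Kif19a (0.245) is lowest. For Tmeff2 and Ncan the bars of the groups are apart, and so, narrowly, are those for Luzp2 and Megf11.

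Genes of the same pathways outside the set gave no call in edgeR with all 8 libraries, a fit in which no gene at all was called. Of 11 PDGF and FGF ligands and receptors, 5 had higher and 6 lower estimates (median -0.01, and 0.04 with 6 higher without LAQ 7) and none had an unadjusted p under 0.05. The 4 of smallest p were Fgfr3 (-0.19), Fgfr1 (0.23), Fgf1 (0.25) and Pdgfc (-0.15), with adjusted p values from 0.456 to 0.790. Of 26 tested genes of chondroitin sulfate and hyaluronan metabolism, 15 were higher and 11 lower (median 0.06). At an unadjusted p under 0.05, 2 were higher, as were 4.77% of all genes. Adamts4, a protease that cleaves lecticans and is made by oligodendrocytes, was 1 of them. Its means were 108 CPM in control and 130 CPM in LAQ, with a log2 fold change of 0.27 (SE 0.08, adjusted p 0.285). Its LAQ libraries lay wholly above control, as did those of 2.78% of all genes. The sulfotransferase Chst15 had 0.31 (adjusted p 0.360), while the chain-building enzymes B3gat3 and Chpf2 had -0.19 and -0.17.

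Of 17 further precursor genes tested, 7 were higher and 10 lower (median -0.04). Sox5, a transcription factor that holds back oligodendrocyte maturation and is also present in deep-layer cortical neurons, had -0.63 (SE 0.11). Its LAQ libraries lay wholly below control, as did those of 3.61% of all genes. The adjusted p of Sox5 was 0.136 in edgeR, 0.0242 without LAQ 7 and 0.00078 in DESeq2. The proteoglycan Cspg5 had -0.19, the lineage factor Sox10 0.17 and the retinoid-binding protein Rlbp1 -0.13, with edgeR adjusted p values from 0.408 to 0.613. Of 14 further newly formed oligodendrocyte genes tested, 6 were higher and 8 lower (median -0.05). Tcf7l2, a Wnt pathway factor of premyelinating cells, had -0.73 (SE 0.23, adjusted p 0.279, and 0.0313 without LAQ 7). Tcf7l2 is also itself in the thalamic neuron list, where 5 of the 7 genes were lower with Tcf7l2 counted among them. Of the rest, Rora, Lef1, Tac2 and Prkcd were lower and Gng8 and Calb2 higher. The part of thalamic neurons in the result was not tested. The sulfotransferase Ust (0.24), Mical3, which acts on actin (-0.40, adjusted p 0.447, and 0.0414 without LAQ 7), and the deacetylase Sirt2 (0.13) complete the 4 of smallest p in that list.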

How the data were processed

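Poly(A) RNA-seq counts were measured in 8 corpus callosum libraries. The authors deposited raw counts, whole numbers by gene symbol. Per the submitters' processing notes, HTSeq, STAR 2.5.2b, bcl2fastq 2.17.1.14 and, separately, DESeq2 1.10.1 were used with GRCm38.p3. In the sources used here, annotation release, strand setting and read filters were not given. The deposited normalized table was not used, and 0 columns were left unmapped. Groups and library numbers came from the sample titles.

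Genes passing filterByExpr (minimum count 10, minimum total 15) were scaled by TMM and compared, in R 4.3.3 with limma 3.58.1 and edgeR 4.0.16, by the two-sided quasi-likelihood test, without covariates, with Benjamini-Hochberg adjustment over all 15771 genes and a threshold of 0.05. The SE is the log2 fold change's size over the square root of F. CPM used TMM-scaled library sizes, and log2 CPM a prior count of 2. The steps were tested on simulated data. Exon lengths and positions came from the GENCODE M21 annotation of GRCm38, with Tmem2 matched through its RefSeq synonym Cemip2. Of the 32 members, 8 share over 0.05% of their exon bases with another gene (Pdgfra, Lhfpl3, Tnr, Matn4, Sulf2, Gpr17, Bcas1 and Tmem2). Total counts of 8790749 to 12021429 per library set the precision, and intervals at low counts are wide.

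The members and all lists were chosen with earlier results of these data known. Every member is named. Values in every library were given for the 10 members of smallest p and for Pdgfra, Cspg4, Vcan, Gpr17, Enpp6 and Bcas1, and for Cacng4, Mycl and Casr after their values were seen. Of each pathway list the 4 genes of smallest p are named. Alternatives were other scalings (median of ratios, library size alone), filters (none, 1 CPM in 4 libraries), DESeq2 1.42.0, limma voom, robust edgeR, an adjusted p under 0.1, cell type scores as covariates, and leaving out each library. Figures were drawn with matplotlib 3.10.9.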

Additional observations from a re-analysis of the deposited data

Results flagged for a closer look

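In 60 sets of 4 libraries (30 tested members in each group), 3 held a library whose gap to its nearest neighbour as a share of the range exceeded Dixon's 95% critical value, which chance gives in about 1 in 20 sets. Pcdh15 was at 29.9 CPM in LAQ 7 while the other LAQ libraries were at 19.1 to 20.8 CPM. Megf11 was at 26.3 CPM in LAQ 7 while the others were at 19.3 to 20.2 CPM. Kif19a was at 0.446 CPM in control 2 while the other controls were at 1.144 to 1.24 CPM, a difference that rests on 4 counts.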

How the results depend on the processing

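The count of all genes passing the adjusted p threshold, 0 in edgeR with all 8 libraries, was 25 without an expression filter, 129 with DESeq2, 470.0 with the cortical neuron score, 372 with the mature oligodendrocyte score, 3 with the astrocyte score, and 0 to 339 when 1 library was left out (339 without LAQ 7). Among the members it was 1 with DESeq2, 2 with the cortical neuron score, 1 with the mature oligodendrocyte score, and 0 to 2 when 1 library was left out (2 without LAQ 7). The mature oligodendrocyte score moved the median of the surface genes from -0.03 to -0.37, the cortical neuron score to -0.28 and the astrocyte score to 0.15. The cause of these shifts was not tested. The sign of the log2 fold change was the same in all 18 alternatives for 18 of 30 members. It changed for the 12 others as follows. With the astrocyte score Pdgfra was 0.023, Cspg4 0.14, Sulf2 -0.015, Tmem2 0.039 and Rras2 -0.13. With the mature oligodendrocyte score Pcdh15 was -0.41, Pcdh17 -0.15, Matn4 -0.074 and Bcas1 -0.019. With the cortical neuron score Pcdh15 was -0.30, Pcdh17 -0.15 and Tmem2 0.10. With voom Pcdh15 was -0.0078 and Rras2 -0.040, and with library size alone Rras2 was -0.0030. Leaving out 1 library gave ranges of -0.24 to 0.0065 for Cspg4, -0.53 to 0.071 for Cacng4, -0.16 to 0.11 for Pcdh15, -0.15 to 0.11 for Pcdh17, -0.022 to 0.23 for Tnr, -0.27 to 0.063 for Tmem2, -0.12 to 0.15 for Rras2 and -0.0088 to 0.072 for Epn2.

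No paired analysis was possible because the library numbers are not shared between the groups. Depth limits Kif19a, Casr and other members of few counts, and counts of members rest on few genes.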
